A study of Mus musculus with 2 samples.

Results

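Cluster 7 of the control library was a group of cells from mouse salivary gland organoids that carried the transcripts of DNA replication, of histones and, beside these, of mitosis. Its members were the 251 genes entered for cluster 7 in the authors' deposited table of control clusters, of 10368 entries for 4419 genes in 15 clusters. Of these, 228 genes were higher in cluster 7 than in all other control cells, 1.2% of the 19070 genes tested, and 23 were lower, 0.121% of the genes tested. From the listed shares, cluster 7 came out as 5.42% of the control cells.

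Organoids, small tissue-like aggregates grown in culture, were made with stroma of salivary glands from the outbred mouse stock CD-1 at embryonic day 16, and the age label adds 7 to that day without giving its meaning. The series held 1 control library and 1 library with FGF2, a fibroblast growth factor of unstated dose and timing. The labels give 5023 control and 10107 FGF2 cells as captured on a droplet system that reads the 3' end of transcripts. Both libraries shared strain, tissue and age, and no replicate existed for either, so no difference below has a replicate check or a test.

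Every level below is a ratio. A fold is the average of a gene in cluster 7 over its average in all other control cells, each with 1 added, as the listed natural log ratios give it, and it understates the difference of a scarce gene. A share is the percentage of cells in which the gene was detected. The authors listed a gene only at a fold of at least 1.28 in either direction and with a larger share of at least 25.1%, so the entries nearest to that limit were Suz12 and Spdl1 at 1.28-fold, and values of genes outside it were not used here. A gene that is not listed for a cluster may still be expressed there. Depth per cell was unknown, and therefore no interval accompanies a share. The setting of these genes against the other cells is the setting that defined the cluster, so the values describe it and do not test it.

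A cell that divides passes through G1, copies its DNA in S phase, and then passes through G2 into mitosis. In S phase the MCM helicase unwinds the DNA, the sliding clamp PCNA holds the polymerases on it, and new DNA is packed at once with newly made histones. Canonical histone genes are transcribed mainly during this phase, and most of their mRNAs end in a short stem-loop that takes the place of a poly(A) tail. Genes of mitosis, such as kinesins, kinetochore proteins and the mitotic cyclins, reach their highest transcript levels later, in G2 and M.

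The markers given for the cluster led its list. Hist1h2ap, which encodes a histone H2A, stood 6.26-fold above the other cells and was detected in 96.3% of cluster 7 cells against 19.0% of the others. Hist1h1b, a linker histone that sits where DNA enters and leaves the nucleosome, stood 3.96-fold higher, with shares of 94.5% and 13.0%. Top2a, the topoisomerase that untangles DNA strands, stood 3.84-fold higher (98.5% against 17.3%). These first genes on the list therefore included both S-phase histones and a gene whose transcript is counted among those of G2/M. Pclaf, which binds PCNA, stood 3.63-fold higher (93.4% against 12.1%), and Atad2, a chromatin protein with a bromodomain, 2.54-fold higher (98.5% against 32.0%). Of 13 further cycling markers, 12 were listed as higher, and the marker not listed was Ccnb1, a mitotic cyclin. None of 9 stromal markers, among them Col1a1, Dcn and Pdgfra, was listed for cluster 7 in either direction.

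**Figure D1:**
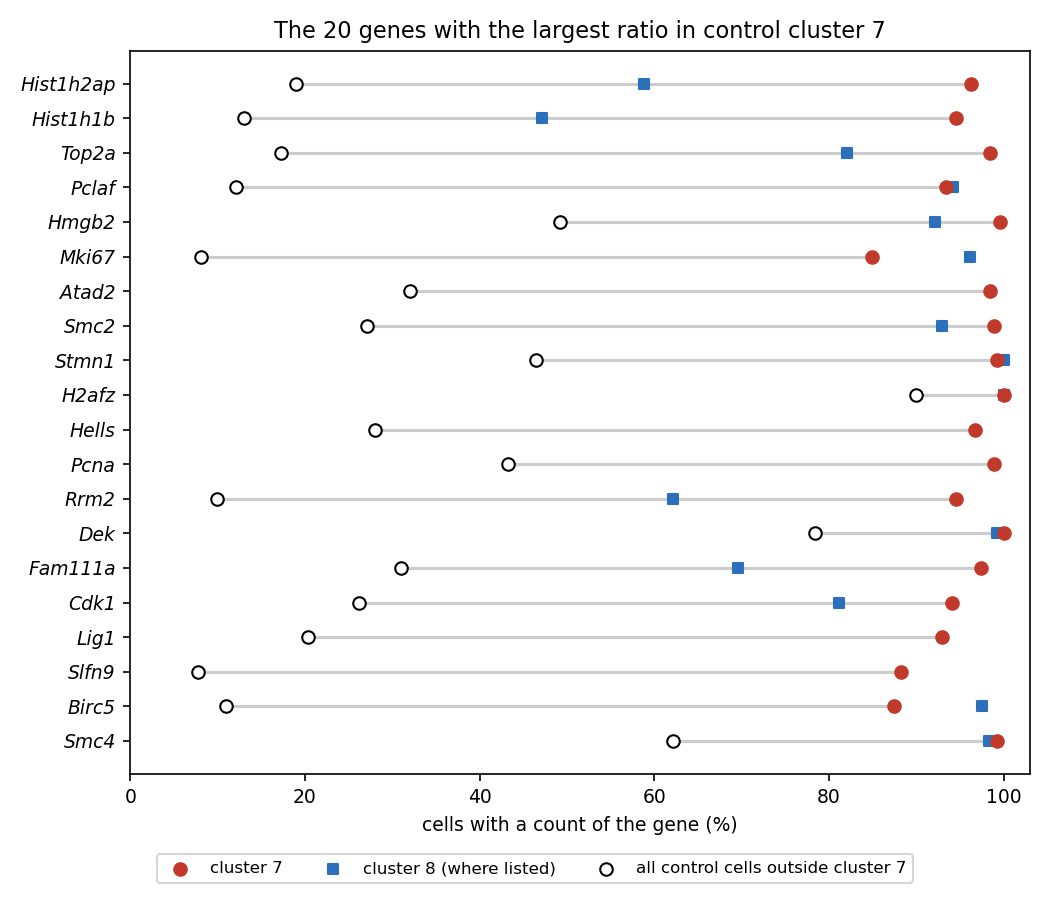
The 20 genes with the largest ratio in control cluster 7, from top to bottom, with the percentage of cells in which each was detected (x axis) in cluster 7, in cluster 8 where listed, and in all other control cells. For Hist1h2ap the points lie at 96.3%, 58.8% and 19.0%, while for Mki67 the cluster 8 point, 96.2%, lies to the right of the cluster 7 point, 84.9%.

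The other genes among the 20 with the largest ratio were of the same kinds. Hmgb2, a DNA-bending protein, was 2.91-fold higher, and the proliferation antigen Mki67 2.65-fold higher. The condensin subunits Smc2 and Smc4, which fold chromosomes, were 2.46-fold and 2.09-fold higher. Stmn1, which takes apart microtubules, was 2.43-fold higher. H2afz, the variant histone H2A.Z, was 2.36-fold higher but was detected in most of the other cells too, as in 100% of cluster 7. Hells, a chromatin remodeller that works with DNA methylation, was 2.31-fold higher, and Dek, a chromatin protein, 2.26-fold. Rrm2, the small subunit of ribonucleotide reductase, which makes the building blocks of DNA, was 2.27-fold higher and was among the most selective of the set (94.5% against 9.9%). Fam111a, a protease that acts at replication forks, was 2.21-fold higher, the kinase Cdk1 2.17-fold, the DNA ligase Lig1 2.14-fold, Slfn9 2.11-fold and Birc5, which encodes survivin of the chromosomal passenger complex, 2.10-fold. Beyond these few genes the ratios were small. Of the 228 higher genes, 26 reached 2-fold, 128 were under 1.5-fold, and the median was 1.47-fold.

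The shares carry no added 1, so their ratios are not on the scale of the folds. The median share of the 228 higher genes was 88.2% in cluster 7 and 28.15% in the other cells. In cluster 7, 107 of them were detected in at least 90% of the cells, while 61 were detected in under 10% of the other cells. For 40 genes the share was at least 10 times that of the other cells. The linker histone Hist1h1a had the widest ratio of shares, 30.5, with 51.8% against 1.7%, although its fold was only 1.36. Next came Esco2, which acetylates cohesin in S phase, with 71.7% against 2.6%, and the repressor E2f7, with 57.0% against 2.1%. Cyclin E2, Ccne2, which acts at the entry into S phase, was detected in 61.8% against 3.0%. Genes of recombination and repair followed, with Rad51ap1 at 86.4% against 4.2%, Brca1 at 63.6% against 3.3% and the helicase Brip1 at 60.7% against 3.2%. The kinesin Kif15 (66.5% against 3.9%), the helicase partner Cdc45 (64.0% against 4.3%) and the polymerase Pole (61.8% against 4.2%) completed the 10 widest ratios.

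The canonical histones Hist1h2ap and Hist1h1b gave the largest ratios, but most canonical histone genes were not listed, and the reason was not tested. Of 62 canonical histone genes looked for, 9 were listed for any control cluster and 7 for cluster 7, every one of the 7 higher. Hist1h2ae, another histone H2A, was 2.08-fold higher (71.0% against 8.4%), and the linker histone Hist1h1e was 2.03-fold higher (87.5% against 35.2%). Hist1h1a was 1.36-fold, Hist2h2ac 1.34-fold (57.4% against 11.2%) and Hist1h1d 1.31-fold higher (59.2% against 9.4%), all below the median of 1.47-fold of the higher genes. Linker histones thus made up 4 of the 7, and no histone H3 or H4 gene of the list was entered for cluster 7. In GENCODE M21 on GRCm38, Hist1h2ap lies at chr13:21833026-21833507 and Hist1h1b at chr13:21779883-21780625, both on the minus strand. Hist1h2ae (chr13:23570517-23571220), Hist1h1e (chr13:23620629-23622558), Hist1h1d (chr13:23553262-23560686) and Hist1h1a (chr13:23763666-23764406) lie in the same chromosome 13 histone cluster, and Hist2h2ac lies at chr3:96220361-96220880. Canonical histone genes are near copies of one another, and how reads were shared among copies is not stated by any source read here, so values of single copies are uncertain.

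The histone stem-loop is shown because the capture reads the 3' end, where canonical histone mRNAs classically carry this structure. The first stem GGCNCT, the loop TTTN and the second stem AGNGCC, in a row and with N for any base, were searched on the sense strand of annotated transcripts. They occurred in 45 of 21877 protein-coding genes (0.206%), in 40 of the 62 canonical histone genes and in 6 of 245 genes listed for cluster 7 that had a transcript. Each is shown 5' to 3' on its own line with the matched letters in capitals. The first 5 belong to canonical histones of cluster 7 and the last to H2afx, a histone variant also listed for it.
Hist1h2ap: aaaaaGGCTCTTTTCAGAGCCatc
Hist1h2ae: acaaaGGCTCTTTTCAGAGCCatt
Hist1h1e: ccaaaGGCTCTTTTCAGAGCCacc
Hist1h1d: caaacGGCTCTTTTCAGAGCCacc
Hist2h2ac: aaaaaGGCTCTTTTTAGAGCCacc
H2afx: acaaaGGCCCTTTTAAGGGCCacc
The loop reads TTTC in 4 of the 6, TTTT in Hist2h2ac and TTTA in H2afx. Hist1h1a and Hist1h1b gave no match, which says only that these letters are not in their annotated transcripts. Only the Hist1h2ap match lay at the end of its annotated transcript, with 3 bases after it. The other annotated transcripts run on, by 57 bases in Hist2h2ac, 151 in Hist1h2ae, 822 in H2afx, 1153 in Hist1h1e and 4884 in Hist1h1d. A match does not tell whether the molecules counted here ended in the stem-loop or in a poly(A) tail.

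**Figure D2:**
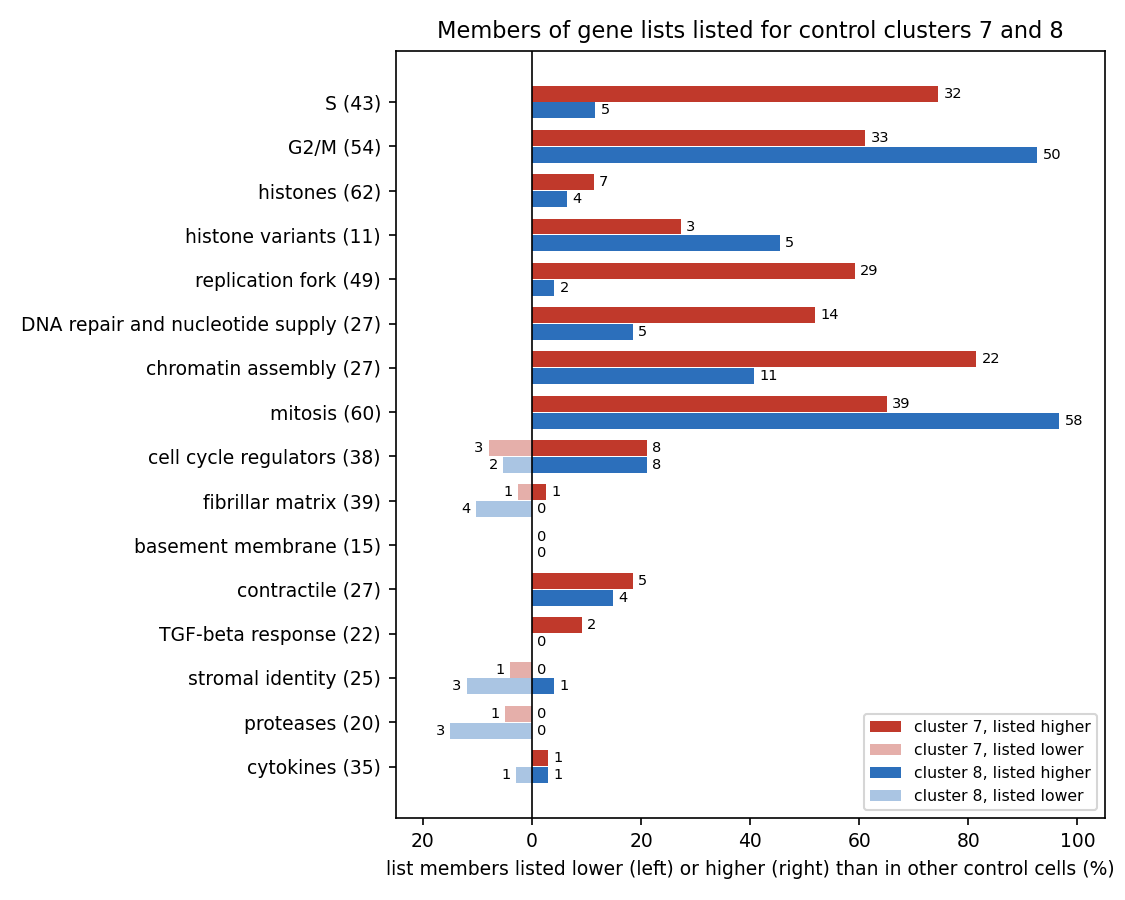
Percentage of the members of each gene list (x axis, list size in brackets) entered as higher (right) and as lower (left) for control clusters 7 and 8, with the number of genes at the end of each bar. The replication fork list has 29 genes in cluster 7 and 2 in cluster 8, and the mitosis list 39 and 58.

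Of 49 replication fork genes, 30 were listed for any control cluster and 29 for cluster 7, all 29 higher. The other 20 were not listed for cluster 7. All of Mcm2, Mcm3, Mcm4, Mcm5, Mcm6 and Mcm7, the subunits of the MCM helicase, were among them, from 1.39-fold for Mcm2 to 1.91-fold for Mcm6 (95.6% against 28.3%). Pcna stood 2.27-fold higher (98.9% against 43.3%), and the clamp loader was represented by Rfc1, Rfc2, Rfc3, Rfc4 and Rfc5, from 1.33-fold to 1.59-fold. Clspn, which carries the checkpoint signal at stalled forks, was 2.08-fold higher and was found in 91.2% of cluster 7 cells against 8.4% of the others. The licensing pair had unlike values, with the inhibitor Gmnn at 1.87-fold (94.1% against 10.0%) and its target Cdt1 at 1.30-fold (66.2% against 11.1%). The polymerase and primase genes Pola1, Pole and Prim1 lay between 1.33-fold and 1.42-fold, and the flap endonuclease Fen1 at 1.29-fold.

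Nucleotide supply and repair followed the same direction. Of 27 genes of that list, 14 were listed for any control cluster, and all 14 were listed as higher in cluster 7. Tyms, which makes thymidylate, was 2.05-fold higher (94.5% against 33.0%), and the large reductase subunit Rrm1 was 2.0-fold higher (96.3% against 34.6%). Dut, which removes dUTP, stood at 1.94-fold and thymidine kinase Tk1 at 1.90-fold (83.8% against 7.2%). Brca2, a gene of recombination, had a smaller ratio (1.29-fold).

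Genes of chromatin assembly on new DNA were listed for cluster 7 in 22 of 27 cases, all higher. Nasp, a chaperone of histones, was 1.93-fold higher (98.9% against 52.3%). The chaperones Chaf1a, Chaf1b and Asf1b, which place histones on new DNA, were 1.5-fold, 1.4-fold and 1.34-fold higher. Slbp, the protein that binds the histone stem-loop, was 1.65-fold higher (94.5% against 47.4%). The maintenance methyltransferase Dnmt1 was 1.82-fold higher and its partner Uhrf1 1.65-fold higher (86.4% against 8.2%). Variant histones, 3 of 11, were listed as well, with H2afz at 2.36-fold, H2afx, whose phosphorylated form marks broken DNA, at 1.56-fold and H2afv at 1.5-fold.

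By the lists that are in common use to call a phase, cluster 7 held both. Of 43 S-phase genes, 33 were listed for any control cluster and 32 were higher in cluster 7. Of 54 G2/M genes, 52 were listed for any cluster and 33 were higher in cluster 7. Atad2, Hells, Pcna and Rrm2 led the S list, and Top2a, Hmgb2, Mki67 and Cdk1 led the G2/M list. The S genes not listed for cluster 7 included Ung, Cdca7, Cenpu, Wdr76, Ubr7, Pold3, Cdc6, Exo1, Dscc1 and E2f8. The 21 G2/M genes not listed included Cdc20, Ccnb2, Aurka, Cenpa and Kif23, while Ube2c, Anln and Ect2, which act in anaphase or cytokinesis, were listed as higher (1.70-fold, 1.57-fold and 1.29-fold). Of 60 mitosis genes, 39 were listed as higher, with Mki67, Cdk1, Birc5 and Prc1, a bundler of spindle microtubules (2.08-fold), at the head. A further 64 genes of cell cycle lists, in neither phase list, brought the sum to 129 of the 228 higher genes.

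Regulators of the cycle were listed in both directions. Of 38, 8 were higher. Besides Cdk1, these were Fbxo5, an inhibitor of the anaphase-promoting complex that keeps cyclins stable in S and G2 (1.92-fold, 84.2% against 6.1%), Ccna2, the cyclin of S and G2 (1.64-fold, 77.2% against 7.2%), and Ccne1 (1.59-fold, 83.8% against 29.6%). Ccne2, Wee1, E2f7 and Skp2 lay between 1.30-fold and 1.49-fold. Another 3 regulators were lower, and each is known to slow the cycle. Of all 23 lower genes of the cluster, 7 had an adjusted p-value of the authors under 0.05, and 0 had shares that differed by 1.5 times. By the authors' order of genes, none of these 3 regulators was among the 7. The inhibitor Cdkn1c stood at 0.598 of the level in the other cells although it was detected in 94.1% of cluster 7 cells against 83.7%, Btg1 at 0.75 (82.0% against 74.7%), and the inhibitor Cdkn2b at 0.76 (60.7% against 55.9%). Cdkn1c was also low in clusters 3 and 6 (0.588 and 0.531), which were not led by cycling genes, and in cluster 8 (0.643).

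Cluster 8 was the other cycling cluster of the control library, 4.78% of its cells and led by Cenpf, Mki67 and Prc1. For it 236 genes were listed as higher, 1.24% of the genes tested. Both clusters are set against control cells that include the other one, so their lists share cells, and the values are therefore given side by side. Of the S list, 32 genes were listed for cluster 7 and 5 of these also for cluster 8. Of the 54 genes of the G2/M list, 33 were listed as higher for cluster 7 and 50 for cluster 8. All of the 33 but Cbx5, a heterochromatin protein, were also listed for cluster 8. Replication fork genes numbered 29 in cluster 7 and 2 in cluster 8, whereas mitosis genes numbered 39 and 58.

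For the 136 genes listed for both clusters, the level in cluster 7 could be set directly against that in cluster 8. These leave out the genes listed for only 1 of the clusters, among them most S and replication fork genes of cluster 7. The balance below is therefore that of shared genes only. Of the 136, 14 were at least 25% higher in cluster 7 than in cluster 8 (10.3%), 40 were lower by the same factor (29.4%), and 82 lay between. With shares in place of levels, 14 were higher and 7 lower, so the balance turned. With a limit of 1.5-fold, 5 were higher and 20 lower. The median log2 ratio over the 136 was -0.10. Hist1h2ap was furthest on the side of cluster 7, at 3.27-fold, with shares of 96.3% and 58.8%. Hist1h1b followed at 2.51-fold (94.5% and 47.1%), then Rrm2 at 1.60-fold (94.5% and 62.1%), Fam111a at 1.59-fold, Pclaf at 1.52-fold and Hist1h1e at 1.46-fold. The long noncoding RNA Malat1, at 1.45-fold, was low in both clusters against the rest and lower in cluster 8. Nasp, Dek and Fbxo5 completed the first 10, from 1.43-fold to 1.37-fold, and Tyms, Rrm1, Tk1 and the nuclear transport factor Ranbp1 were the others.

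On the side of cluster 8, Cenpf, a kinetochore protein, was 3.11-fold higher than in cluster 7. The kinetochore motor Cenpe was 2.48-fold higher, the spindle protein Hmmr 2.44-fold, Ube2c, which adds ubiquitin for the anaphase-promoting complex, 2.30-fold, and Cks2, a subunit of Cdk complexes, 2.26-fold. Tpx2, Prc1, Tubb4b, Ube2s and Cdca8 lay between 1.98-fold and 1.68-fold. Of the S genes listed for both, 4 of 5 were higher in cluster 7 and 0 lower. Of the canonical histones listed for both, 3 of 3 were higher in cluster 7. The canonical histone Hist1h1c was listed as higher for cluster 8 (62.5% against 35.8% of the other cells) but was not listed for cluster 7. Its levels in the pair of clusters could therefore not be compared. Of the G2/M genes, 0 of 32 were higher in cluster 7, 20 were lower and 12 lay between, with a median level of 0.698 of that in cluster 8.

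Levels and shares did not run together for all G2/M genes. Of the 32, 12 had the larger share in cluster 7 and 19 the smaller. Top2a was detected in 98.5% of cluster 7 cells and 82.1% of cluster 8 cells. Cdk1 was detected in 94.1% and 81.2%, Aurkb, the kinase of the chromosomal passenger complex, in 73.2% and 51.7%, and Hjurp, the chaperone of the centromeric histone, in 81.2% and 65.4%. Several genes of the G2/M or mitosis lists were listed for cluster 8 and not for cluster 7. Among these, Cenpa, the centromeric histone, was 4.31-fold above the other cells and found in 100% of cluster 8, Ccnb2 3.09-fold (99.6%), Cdc20, which activates the anaphase-promoting complex, 2.91-fold and Ccnb1 2.77-fold (87.1%).

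**Figure D3:**
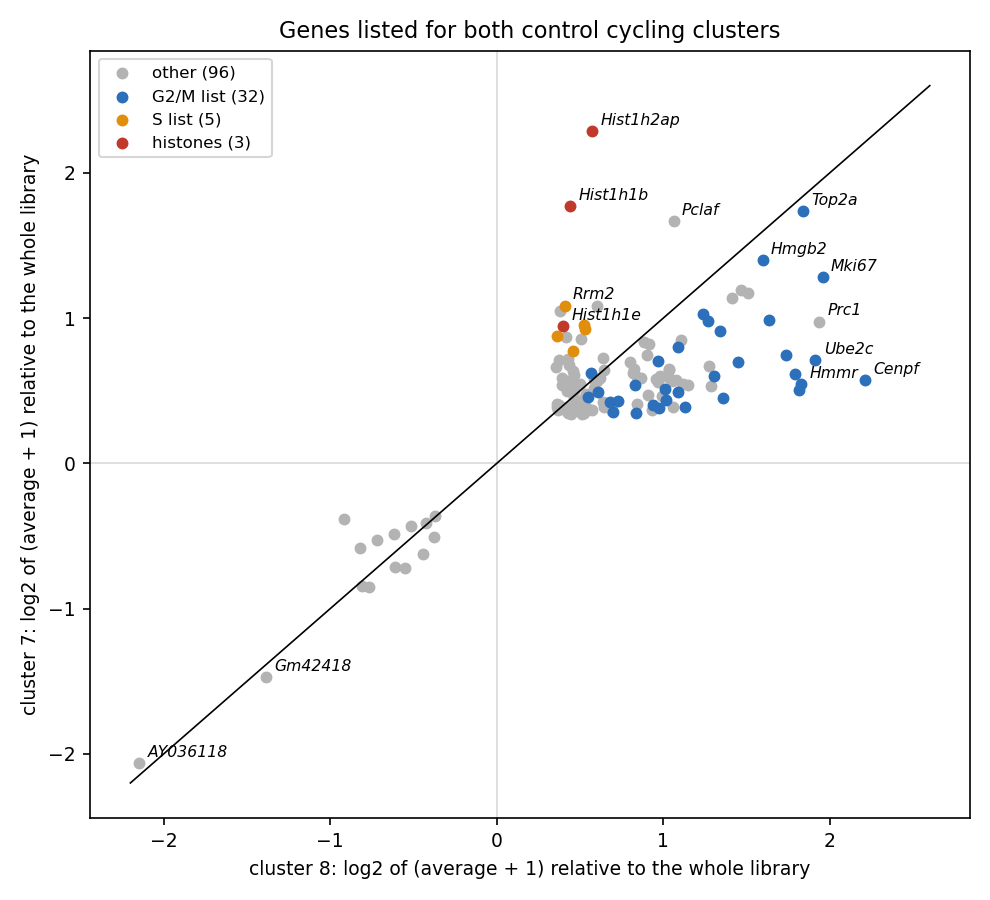
Level in control cluster 7 (y axis) against control cluster 8 (x axis), both as log2 of the average plus 1 over that of the whole library, for the 136 genes listed for both, coloured by gene list. The 3 canonical histones lie above the line of equal levels, at 1.46-fold to 3.27-fold, and Cenpf lies furthest below it.

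Promoters of members were searched for the short letters that cell cycle factors are known to bind, because S and G2/M genes are classically read by different ones. E2F sites (TTTCCCGC, TTTCGCGC, TTTGCCGC or TTTGGCGC), the cell cycle homology region CHR (TTTGAA or TTCGAA) and the CCAAT box were searched on both strands of the 250 bases before each RefSeq start on GRCm38.p6, and the TATA box (TATAAA) on the sense strand. Among 17491 protein-coding genes, 2.72% held an E2F word, 18.4% a CHR word, 39.5% a CCAAT word and 9.11% a TATA word. Of the 228 higher genes, 185 matched a promoter, and 29 of these (15.7%) held E2F, 44 (23.8%) CHR, 116 (62.7%) CCAAT and 11 (5.95%) TATA. Of 23 S genes with a promoter, 7 held E2F, 4 CHR and 19 CCAAT. Of 30 G2/M genes, 2 held E2F, 13 CHR and 22 CCAAT. Of 6 canonical histones, 0 held E2F, 3 CHR, 6 CCAAT and 5 TATA. A match is a string of letters and not a bound site, and the sets were not tested against the background.

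Promoters of a histone, a G2/M gene and 3 S genes are shown as examples that differ in which words they hold, and most S promoters held no E2F word. Each line gives the 150 bases before the start, 5' to 3' on the gene's own strand, with every match in capitals. The histone is Hist1h1b (chr13:21780626-21780775, minus strand), with CCAAT words beginning 66 and 53 bases before the start and TATAAA at 28. Top2a (chr11:99024190-99024339, minus strand) holds CCAAT words at 149, 98, 78 and 58 and CHR words at 140, 120 and 23. Mcm6 (chr1:128359706-128359855, minus strand) holds E2F words at 110, 106 and 47, the first pair overlapping, and CCAAT words at 57 and 14. Hells (chr19:38930840-38930989, plus strand) holds a single E2F word at 62. Rrm2 (chr12:24708104-24708253, plus strand) holds a CCAAT word at 50 and no E2F word in these bases.
Hist1h1b: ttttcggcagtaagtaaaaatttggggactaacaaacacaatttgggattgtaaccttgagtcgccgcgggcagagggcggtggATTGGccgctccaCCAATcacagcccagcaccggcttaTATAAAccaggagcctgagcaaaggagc
Top2a: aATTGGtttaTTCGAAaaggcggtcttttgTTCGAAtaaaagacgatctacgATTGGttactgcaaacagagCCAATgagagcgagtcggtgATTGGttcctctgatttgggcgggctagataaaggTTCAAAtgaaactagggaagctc
Mcm6: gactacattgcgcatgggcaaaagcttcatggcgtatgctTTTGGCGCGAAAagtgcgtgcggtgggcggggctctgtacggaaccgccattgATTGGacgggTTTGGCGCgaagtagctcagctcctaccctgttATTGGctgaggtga
Hells: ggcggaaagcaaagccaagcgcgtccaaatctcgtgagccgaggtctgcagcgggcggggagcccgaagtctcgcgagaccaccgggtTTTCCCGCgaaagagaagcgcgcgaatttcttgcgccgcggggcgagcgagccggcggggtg
Rrm2: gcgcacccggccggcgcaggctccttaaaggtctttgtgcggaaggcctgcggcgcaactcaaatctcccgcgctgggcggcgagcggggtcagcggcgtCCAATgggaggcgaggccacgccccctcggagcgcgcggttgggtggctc
The histone promoter is the one of these with TATAAA, Top2a the one with CHR words, and Mcm6 and Hells the ones with E2F words. Positions are those of the first base of a word as read on the gene's strand.

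From the listed shares and the size of the cluster, the part of all positive control cells that lay in cluster 7 was computed for each gene. Its median over the 228 higher genes was 16.2%, against 5.42% of all cells, and its highest values were 63.6% for Hist1h1a, 61.3% for Esco2 and 60.9% for E2f7. Ccne2, Rad51ap1 and Brca1 had between 52.5% and 54.2% of their positive cells there. For several genes of both cycling clusters, most positive cells lay in the pair. Kif15 had 49.6% in cluster 7 and 35.6% in cluster 8, leaving it detected in 1.20% of cells outside both. Mki67 had 37.6% in each, and 3.38% of the cells outside both were positive. Tk1 (40.1% and 27.6%) and Fbxo5 (44.3% and 19.5%) leaned to cluster 7, Hmmr (33.0% and 39.3%) to cluster 8. Hist1h2ap was spread more widely. It was detected in 16.9% of the cells outside both clusters, and only 22.5% and 12.1% of its positive cells lay in clusters 7 and 8. Hist1h2ap was also entered as lower in cluster 2, led by Spp1, Cxcl13 and Saa3, where 9.7% of cells were positive against 25.3% of the others. Free RNA in droplets can give a count in a cell that does not express a gene, and its part in the low shares outside the cycling clusters was not tested.

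**Figure D4:**
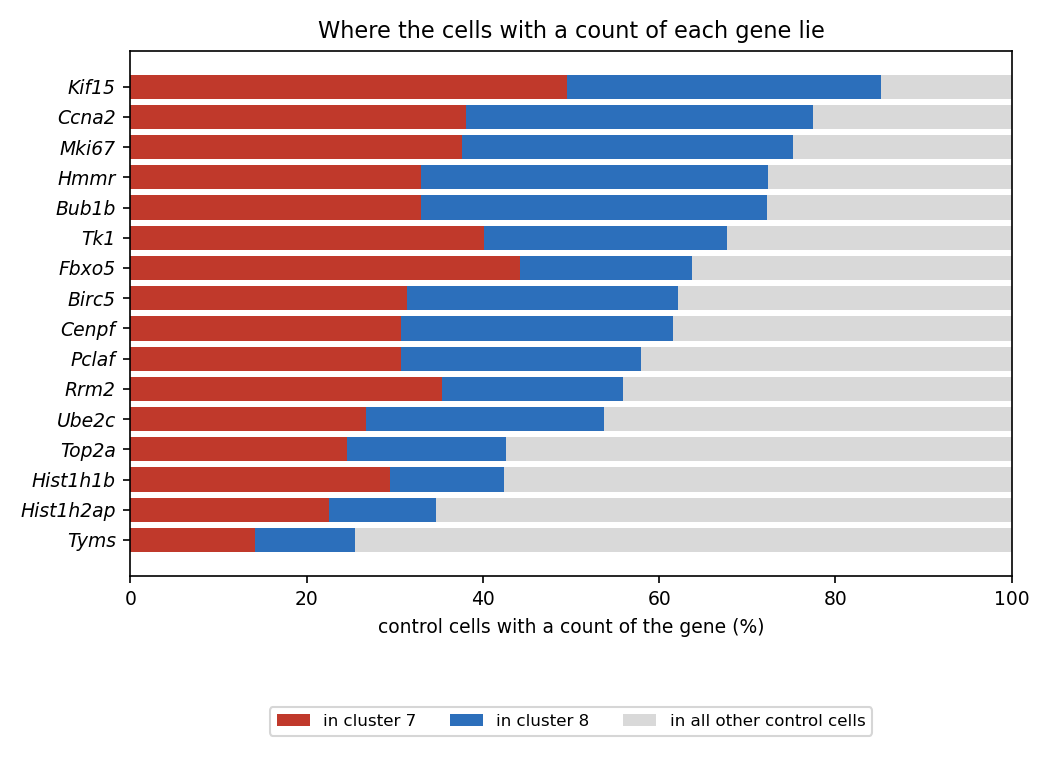
Percentage of all control cells positive for a gene (x axis) that lay in cluster 7, in cluster 8 and in the other clusters, for a set of genes listed for both. For Kif15 the pair of clusters holds 85.2% of the positive cells and for Tyms 25.5%.

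The 99 higher genes outside the cell cycle lists were sorted into groups after their names and values were seen, so their counts describe and carry no weight. In all, 15 belonged to histone chaperones and chromatin, such as Psip1 (1.72-fold), Dnajc9, a chaperone of histones H3 and H4 (1.71-fold, 94.1% against 24.0%), Nsd2 (1.66-fold) and the FACT subunits Ssrp1 (1.57-fold) and Supt16 (1.29-fold). A further 13 belonged to replication and its checkpoints, with Fam111a, Topbp1 (1.71-fold), Dtymk (1.64-fold), Pbk (1.62-fold) and Tcf19 (1.58-fold, 81.2% against 8.5%) first. Another 15 handle RNA, of which Snrpd1 and Lsm2 belong to the splicing machinery (1.53-fold and 1.5-fold) and Eri1, a nuclease that trims histone mRNA ends, was 1.43-fold higher (89.0% against 34.0%). Another 11 concern tubulin and the spindle, with Stmn1, Tuba1b (1.89-fold), Tubb5 (1.85-fold) and the centriole kinase Plk4 (1.60-fold, 83.1% against 16.4%).

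Smaller groups made up most of the remainder. Cohesin and related SMC genes numbered 6, with Esco2 (1.68-fold), Smc6, Smc1a, Smc3, Smchd1 and Rad21. Centromere genes numbered 4, among them Cenph (1.54-fold), Cenpk and Cenpq. Nuclear transport and SUMO genes numbered 4, with Ranbp1 (1.70-fold), Ran (1.59-fold), Sae1 and Sumo2. Serine and one-carbon metabolism and mitochondrial enzymes numbered 5, with Psat1 (1.5-fold), Mthfd2 (1.46-fold), Pgp, Idh2 and Phgdh. The chaperone Hsp90aa1 was 1.4-fold higher. Slfn9, Ccdc34, Selenoh, Mrpl18, Siva1, Pa2g4, Cmc2 and Ppm1g, 8 genes in all, were in no group.

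Stromal genes were a small minority of the list. Of 181 genes of stromal lists covering matrix, basement membrane, contractile proteins, TGF-beta response, stromal identity, proteases and cytokines, 164 were listed for some control cluster, 9 were higher in cluster 7 and 3 lower. Over all 19070 genes tested, 1.2% were listed as higher in cluster 7 and 0.121% as lower. Among the 4419 genes listed for some control cluster, 228 were higher in cluster 7 and 23 lower. For the higher genes that share is close to 9 of 164, so the stromal count is not read as an excess. Contractile genes were the most frequent, 5 of 27 (18.5%), and 2 of 22 TGF-beta response genes (9.09%) were higher. Ccn2, a matricellular protein and a classical target of TGF-beta, was 1.56-fold higher (65.8% against 36.2%). Ptx3, a secreted pentraxin, was 1.53-fold higher (77.6% against 52.4%). Smooth muscle actin, Acta2, was 1.42-fold higher (98.9% against 89.4%), Tagln, which binds actin, 1.36-fold (93.0% against 78.4%), and Cnn1, calponin of smooth muscle, 1.32-fold (66.5% against 39.2%). The matrix glycoprotein Fbln2 stood at 1.35-fold and the actin-binding Tagln2 and Actn4 at 1.31-fold. None of 15 basement membrane genes was listed. Of the 9 higher genes, 3 had a share at least 1.5 times that of the other cells, and 0 reached a natural log ratio of 0.5.

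Each of these 9 stromal genes had a larger fold in at least 1 other control cluster. Acta2 was 3.73-fold above the other cells in cluster 5, led by Acta2, Actg2 and Tagln, and 1.88-fold in cluster 3, led by Thbs1 and Vegfd. It was also 1.90-fold higher in cluster 4, which was led by AY036118, although fewer cells were positive there (83.2% against 90.7%). Tagln and Cnn1 were likewise higher in cluster 4 (1.67-fold and 1.65-fold) with smaller shares. In clusters 1 and 2, which were led by Crabp1 and Spp1, Acta2 stood at 0.0968 and 0.121 of the other cells. Ccn2 was 3.28-fold higher in cluster 5 and 1.36-fold in cluster 3, and stood at 0.480 and 0.523 in clusters 1 and 2. Fbln2 was higher in clusters 3 and 5 (2.03-fold and 1.84-fold) than in cluster 7, and Ptx3 in cluster 3 (2.18-fold). Cnn1 was detected in 98.2% of cluster 5 cells, 66.5% of cluster 7, 8.8% of cluster 1, and 5.2% of cluster 10, led by Gap43 and Apod. Each fold here has its own set of other cells. A further 8 genes, in no stromal list but placed with this group after their values were seen, lay between 1.32-fold and 1.54-fold. They were Ckap4, Crip1, Ddah1, Nsg1, Ccn5, Prdx4, Nexn and Crim1, and not each need be a stromal gene. Ckap4 and Prdx4 were otherwise listed as higher only for cluster 8, and Nsg1 for no other control cluster. Of all 17, Ptx3, Tagln2, Ckap4, Ccn5 and Prdx4 were also listed as higher for cluster 8.

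**Figure D5:**
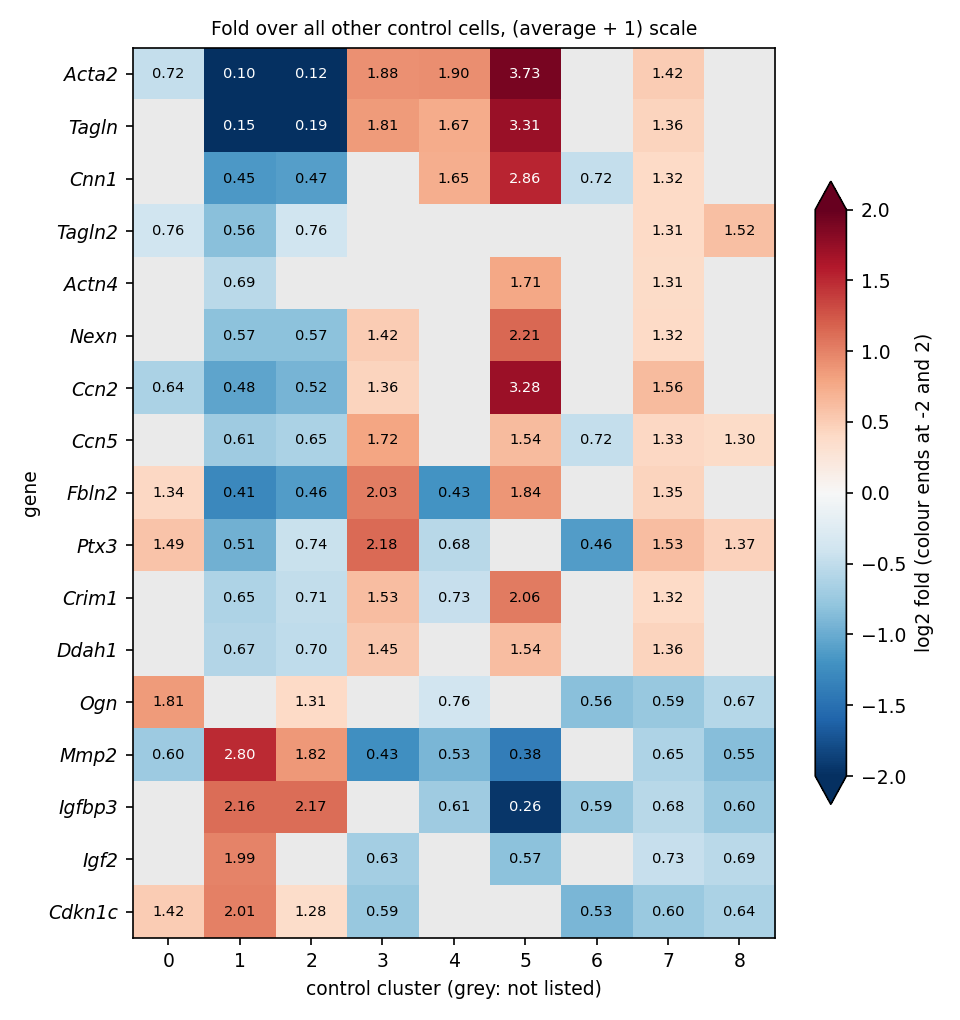
Fold over the other control cells, as a log2 colour with the fold printed, across control clusters (columns), grey where a gene was not listed. Rows are 15 genes listed for cluster 7, from the stromal lists or placed with them afterwards, and Igf2 and Cdkn1c. Acta2 and Tagln are higher in clusters 3, 4, 5 and 7 and lower in clusters 1 and 2, and Acta2 is also lower in cluster 0. Mmp2 is higher in clusters 1 and 2 and lower in clusters 0, 3, 4, 5, 7 and 8.

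Stromal genes that were lower in cluster 7 were Ogn, a small proteoglycan, at 0.593 of the other cells (46.0% against 50.3%), the gelatinase Mmp2 at 0.654 and the IGF-binding Igfbp3 at 0.682. Of these 3, 0 had an adjusted p-value of the authors under 0.05, and 0 had shares that differed by 1.5 times. All 9 stromal genes listed as higher were under that p-value limit, but these p-values treat the cells of 1 library as replicates. Mmp2 and Igfbp3 were detected in more cells of cluster 7 than of the others, 82.7% against 77.1% and 79.0% against 75.3%. Both were high in cluster 1, at 2.80-fold and 2.16-fold. The growth factor Igf2 stood at 0.730 in cluster 7 and at 1.99-fold in cluster 1. Cluster 8, the other cycling cluster, was low in the same genes, with Mmp2 at 0.554, Igfbp3 at 0.596, Ogn at 0.671 and Igf2 at 0.690. Of the 23 lower genes, 17 had the larger share in cluster 7 and 4 the smaller, so most of them were detected in more cells and at a lower normalised level.

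The lowest genes of cluster 7 are commonly read as signs of RNA quality. AY036118 stood at 0.229 of the other cells, Gm42418 at 0.348, Lars2 at 0.540 and Gm26917 at 0.543, and the nuclear RNAs Neat1 and Malat1 at 0.635 and 0.757. The first pair had equal shares in cluster 7 and in the others. AY036118 was about as low in clusters 8 (0.217), 3 (0.194), 0 (0.237) and 5 (0.163), and it was 8.47-fold and 8.18-fold higher in clusters 4 and 9. Cluster 4 made up 10.6% of the control cells, and the median share of the genes listed for it was 10.9% against 84.8% in the other cells. The other cells of cluster 7 therefore included cells in which few genes were detected, and the part of these cells in the folds of cluster 7 was not tested. The remaining lower genes, Zfp36l1, Slfn5, Ctsd, Kdm5b, Cd9, Fth1, Zfas1, Tcim and Sqstm1, with Map1lc3b, lay between Igfbp3 and 0.770.

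Markers of other cell types were not listed for cluster 7. This held for all 8 epithelial, 8 macrophage, 7 Schwann or glial, 6 endothelial, 4 pericyte, 2 erythroid and 3 skeletal muscle markers. Both erythroid markers, all 3 skeletal muscle markers and 2 of the 4 pericyte markers were listed for no control cluster, so for these the missing entry carries no information. From the library share of a gene and the size of cluster 7, the largest possible share could be computed for those listed in another cluster. It was 6.41% for the leukocyte genes Ptprc and Adgre1, 8.22% for the neural crest factor Foxd3, 10.1% for the epithelial genes Krt5 and Cdh1 and 12.0% for the endothelial gene Pecam1. For Epcam the bound was 26.6%, and for the more widely detected markers of the lists it reached 100% and says nothing. No source read here says how doublets were treated.

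The FGF2 library had a single cluster led by cycling genes, its cluster 9, with 4.42% of the cells and Top2a, Ube2c and Cenpa first. For it 228 genes were listed as higher, 1.14% of 20056 genes tested. That library has no cells in common with the control, its clusters are listed in a table of their own, and how it was normalised is not given. Its share of cells is not that of a matched class, so no direction is read from the sizes. Of the 228 higher genes of control cluster 7, 147 were also listed as higher there, 64.5% of either list. All 33 G2/M genes of cluster 7 were among them, 68.75% of the 48 G2/M genes of the FGF2 cluster. Of the S genes, 19 of 32 were (59.4%), which are all the S genes of the FGF2 cluster. Of replication fork genes 16 of 29 were listed, of canonical histones 3 of 7, and of the 9 stromal genes 1.

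The histone markers had smaller folds in the FGF2 cluster than in cluster 7, but wider ratios of the listed shares. Hist1h2ap was 1.85-fold above the other cells in the FGF2 cluster (53.3% against 3.5%) and Hist1h1b 1.90-fold (58.9% against 5.3%), where cluster 7 had 6.26-fold (96.3% against 19.0%) and 3.96-fold (94.5% against 13.0%). Top2a was 5.03-fold higher (86.8% against 11.4%), Pclaf 2.80-fold (76.1% against 2.5%) and Atad2 1.57-fold (71.4% against 22.7%). The 81 genes of cluster 7 not listed for the FGF2 cluster held 13 S genes and 0 G2/M genes. Among them were Mcm2, Mcm5, Cdc45, Cdt1, Ccne1, Ccne2, Pola1, Pole, Prim1 and Uhrf1, the histones Hist1h1a, Hist1h1d, Hist1h2ae and Hist2h2ac, and the stromal genes Acta2, Tagln and Ccn2. With 1 library each, a difference between conditions and one between libraries or between ways of clustering cannot be told apart. In the table of both libraries after integration, cluster 5 was the one led by Top2a, at 4.44-fold, with Pclaf at 2.77-fold, Hist1h1b at 1.90-fold, Hist1h2ap at 1.89-fold and Atad2 at 1.58-fold. These last are differences of batch-integrated values, not of expression.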

How the data were processed

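Single cells of 1 control and 1 FGF2 library were processed with Cell Ranger 4.0 and build mm10, per the submitters' processing notes. The authors deposited tables that set each cluster against the remaining cells. Per the file headers, these give a log ratio of averages, read as a natural log after a check on genes with no positive cell (median coefficient of variation 0.00169% against 0.0488% with base 2), the fraction of positive cells in the cluster and in the others, and p-values. The authors' p-values treat cells as replicates and were not printed. The number of genes tested was read from the ratio of their adjusted to their unadjusted p-values. It also counts genes that could not reach the limits of listing. The clustering, cell filters and normalisation were not given in the sources used here.

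Cluster sizes came from least squares over 2077 control genes listed in at least 2 clusters; they summed to 100.04%, with a residual of 0.0238 points. On simulated tables of 4419 genes, the largest error of a size was 0.00877 points. The level in cluster 7 over cluster 8 was computed from both log ratios and the cluster sizes, with a level 25% higher in either as the limit. Genes named were the 20 highest and 10 lowest, the 10 widest share ratios, the leaders of each list and the genes furthest from cluster 8; others complete a group and were chosen after their values were seen. Members and lists were chosen with earlier results of these data known. Alternatives used stricter limits on the ratio, the shares and the authors' adjusted p-values, base 2, and shares in place of levels. Some listed genes are counted but not reported here by name. Promoters and transcripts came from RefSeq and GENCODE M21.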

Additional observations from a re-analysis of the deposited data

How the results depend on the processing

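No replicate could be left out, since each group was 1 library, and the depth per cell, which limits scarce genes, was unknown. No paired analysis was possible because each group held 1 library and no test was made. With ratios of 0.5 or more on the natural log scale, in either direction, cluster 7 had 57 genes higher and 6 lower, 13 of the S list, 12 of the G2/M list, 0 stromal genes higher and 1 lower. With a ratio of shares of at least 1.5, 0 genes were lower, 0 stromal genes were lower and 3 were higher. With the authors' adjusted p-value under 0.05, 228 genes were higher and 7 lower, and 9 stromal genes were higher and 0 lower. Against cluster 8, a limit of 1.5-fold left 5 genes higher in cluster 7 and 20 lower. Reading the ratios with base 2 left 9 higher, and using shares in place of levels left 7 lower. The count of stromal genes in cluster 7 therefore rests on ratios close to the listing limit. The cluster's part of the cells was 5.42% and 5.41% to 5.42% under the alternatives.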
